A study of Bos taurus with 16 samples.

Results

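The Wnt pathway was followed here through 44 named genes in bovine blastocysts and bovine embryonic stem cells (bESCs) exposed to LY2955303 (LY), an inhibitor of the retinoic acid receptor RARγ. The genes were taken by symbol from a list of ligands, secretion factors, receptors, signal transducers, nuclear factors and secreted antagonists. Each of the 44 had 1 entry in each table, out of 38959 genes in the first blastocyst table, 37429 in the second and 28303 in the bESC table. All embryos came from in vitro fertilization of oocytes from slaughterhouse ovaries, were cultured in a medium with LIF, FGF2 and IGF1, and were sequenced as single blastocysts with a SMART-Seq protocol. In the first experiment, 3 blastocysts had received 10 μM LY from the 2-cell stage (LY10) and 3 the vehicle (DMSO). In the second, LY was added from the 2-cell stage (cell2_LY, n = 2) or from the 16-cell stage (cell16_LY, n = 2), at a concentration that the sample labels do not give, and LY_DMSO (n = 2) was the control. The bESCs grew on mouse embryonic fibroblast feeders in TiFX medium without (bESC_tifx, n = 2) or with LY (bESC_LY, n = 2). TiFX itself holds the GSK3 inhibitor CHIR99021 and the Wnt inhibitor IWR-1, so both bESC groups were cultured with drugs that act on this pathway, along with LIF, forskolin, PD184352, EPZ004777 and SU5402.

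Wnt ligands are lipid-modified proteins that reach the cell surface with the help of the acyltransferase PORCN and the carrier WLS, and bind Frizzled receptors together with the coreceptors LRP5 and LRP6. Without ligand, β-catenin (CTNNB1) is phosphorylated and degraded by a destruction complex built on APC and the axins. With ligand, Dishevelled proteins inactivate that complex, and β-catenin accumulates and works with TCF and LEF factors at target genes such as AXIN2. In preimplantation embryos the pathway has been studied for its part in pluripotency, and inhibition of tankyrase or GSK3 is a common element of media for primed and naive pluripotent cells.

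Levels are given as FPKM, the deposited unit, which allows genes of one table to be compared per length. Normalized counts are reads recovered from those values and scaled to a common library size within each table. A gene was tested if its mean normalized count in the table was at least 10, and was called where its log2 fold change exceeded 1 in either direction and limma gave it a p under 0.05 before adjustment. Adjusted p-values are Benjamini-Hochberg values over all tested genes. With all libraries included and no term for the replicate number, none of the 44 genes had an adjusted p under 0.05 from limma or from limma with voom weights, so the calls made in that way are nominal. Over all tested genes that threshold was met by 0.014% in LY10 against DMSO, 0.0138% in cell2_LY against LY_DMSO and 0% in the other 3 comparisons. Reads on genes ranged from 7905768 to 15137567 in the first blastocyst table, from 11336091 to 17343140 in the second and from 29055323 to 31230432 in the bESCs. The blastocyst libraries held trophectoderm markers, with 2824 to 9892 summed FPKM over the 14 of 15 listed genes in the table, and epiblast markers, with 419 to 942 FPKM over 10 of 11. In the bESC libraries the 8 epiblast markers with an entry summed to 2459 to 2598 FPKM. The 15 trophectoderm markers summed to 102 to 300 FPKM there, with the placental genes PAG2, PAG11, IFNT, IFNT2 and TKDP1 at 0 reads. Listed fibroblast markers summed to 327 to 454 FPKM in the bESC libraries and to 159 to 355 FPKM in the blastocysts, so the ranges overlapped. Cumulus markers summed to 106 to 154 FPKM in the bESC libraries and to 9.31 to 89.4 FPKM in the blastocysts. In whole embryos, fewer cells of a type and less RNA per cell cannot be told apart.

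Among the ligands, WNT6 was the most abundant in blastocysts, at 2.23 to 11.7 FPKM over the 12 embryos with a median of 3.38. WNT2B followed with a range of 0.319 to 4.56 FPKM and a median of 0.816. WNT5A, a ligand best known for β-catenin-independent signalling, lay at 0.135 to 1.04 FPKM. WNT5B, WNT10A and WNT11 had medians of 0.232, 0.331 and 0.337 FPKM, and the highest single value among them was 1.25 FPKM, for WNT11. WNT3, WNT4, WNT7B and WNT9A stayed at or below 0.229 FPKM in every blastocyst. WNT6 and WNT10A are neighbours on chromosome 2 (chr2:106822096-106834781 and chr2:106841901-106855604, coordinates as deposited), with 7119 bases between the genes, and differed in level: the WNT10A median was 0.331 FPKM. The bESCs held another set of ligands. WNT5B was at 9.48 to 24.3 FPKM and WNT5A at 4.69 to 13.6 FPKM in the 4 bESC libraries, whereas WNT6 was at 0 to 0.385 FPKM and WNT2B at 0.03 to 0.105 FPKM.

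The secretion factors were present in both kinds of sample. WLS, the carrier that takes Wnt proteins to the membrane, followed CSNK1A1 and CTNNB1 as the most abundant of the 44 genes in every blastocyst group, at 12.6 to 57.1 FPKM. PORCN, the acyltransferase that attaches their lipid, was at 1.8 to 7.97 FPKM in blastocysts and 13.6 to 18 FPKM in bESCs.

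Blastocysts and bESCs also differed in their Frizzled receptors. The blastocyst set was led by FZD5 (median 5.27 FPKM) and FZD6 (3.16), followed by FZD3 (1.92) and FZD4 (1.79), with FZD7 (0.766), FZD1 (0.406) and FZD8 (0.123) below 1.5 FPKM in every embryo. FZD2 was at 0.0592 FPKM or less in every blastocyst. In bESCs, FZD2 and FZD7 were the most abundant, at 80.6 to 100 FPKM and 50.2 to 63.4 FPKM. FZD1, FZD3, FZD5, FZD4, FZD8 and FZD6 followed there with medians of 12.3, 13, 9.61, 8.62, 5.48 and 3.48 FPKM. Of the coreceptors, LRP6 prevailed in blastocysts with a median of 6.75 FPKM against 0.399 FPKM for LRP5, and both were expressed in bESCs, with medians of 9.84 and 12.4 FPKM.

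Receptor turnover is set by the ubiquitin ligases RNF43 and ZNRF3, which remove Frizzled proteins from the surface, and by the R-spondin receptors LGR4 and LGR5, which restrain those ligases. LGR4 was at 4.92 to 9.35 FPKM in blastocysts and 13.2 to 23.7 FPKM in bESCs. RNF43 and ZNRF3 had blastocyst medians of 0.196 and 0.393 FPKM and bESC medians of 0.668 and 6.18 FPKM. LGR5, a stem cell marker in adult epithelia, was at 0.251 FPKM or less in every blastocyst and at 0.406 to 0.624 FPKM in bESCs.

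Inside the cell, CSNK1A1, the kinase that primes β-catenin for degradation, and CTNNB1 itself were the most abundant of the 44 genes in every blastocyst group, at 54.1 to 98 FPKM and 46.1 to 77.6 FPKM. CTNNB1 was the most abundant in bESCs, at 135 to 150 FPKM. The scaffold APC was at 4.35 to 7.52 FPKM in blastocysts and at 6.69 to 9.12 FPKM in bESCs. AXIN1, AXIN2 and GSK3B had blastocyst medians of 1.23, 1.66 and 5.26 FPKM and bESC medians of 25.4, 17.2 and 22.2 FPKM. GSK3A, the second GSK3 kinase, was at 0.363 to 2.97 FPKM in blastocysts and at 58.5 to 67.4 FPKM in bESCs. Of the Dishevelled proteins, DVL1 was at 0.0549 FPKM or less in every blastocyst and at 14.4 to 24.9 FPKM in bESCs. DVL2 and DVL3 had blastocyst medians of 1.63 and 1.32 FPKM and bESC medians of 42.6 and 20.4 FPKM.

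The nuclear factors TCF7L1, largely a repressor, and TCF7L2 made up most of the TCF expression in blastocysts, with medians of 4.4 and 4 FPKM. TCF7 was at 0.272 to 1.08 FPKM and LEF1, an activator induced by Wnt signalling in many tissues, at 0.254 FPKM or less. In bESCs, TCF7L1 was at 81.9 to 96.2 FPKM, TCF7L2 at 15.6 to 22.3, TCF7 at 6.66 to 21.3 and LEF1 at 2.56 to 16.7 FPKM. The secreted antagonists were low and scattered in blastocysts. Medians there were 0.401 FPKM for DKK1, 0.329 for DKK3, 0.178 for SFRP1 and 0 for SFRP2, with single embryos reaching 5.19, 2.94, 1.6 and 4.42 FPKM. In bESCs the Frizzled-related proteins SFRP2 and SFRP1 were at 91.2 to 120 and 13.4 to 67.8 FPKM, DKK3 at 14 to 22.3 FPKM and DKK1 at 0.0515 to 1.58 FPKM.

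Every bESC library lay above every blastocyst in FPKM for 30 of the 44 genes and below for 2, WNT2B and WNT6. The share over all genes is not given, so the counts in this paragraph do not set the Wnt genes apart. No test was made across the tables, because the libraries differ in how RNA was prepared and amplified and the tables use different annotations. Gene lengths differed by over 1.5 times between the annotations for 16 of the 44 genes, FZD2, FZD5, GSK3B and CSNK1A1 among them. Over the 16 genes whose lengths agree within 10%, the bESC libraries lay above all blastocysts for 12 (WNT7B, FZD1, FZD4, FZD7, LGR4, DVL1, DVL2, AXIN1, TCF7, DKK3, SFRP1 and SFRP2) and below for WNT2B.

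**Figure D1:**
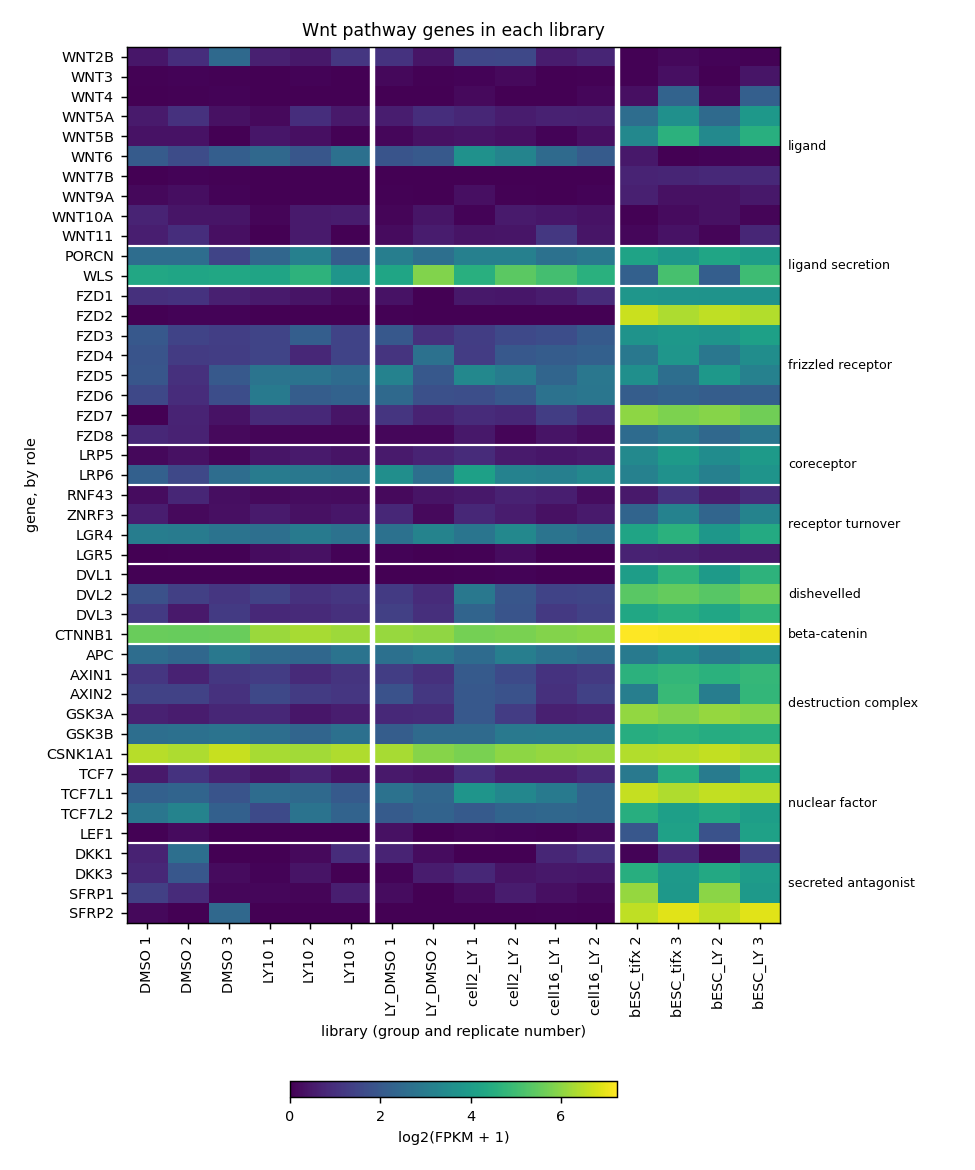
Colour gives log2(FPKM + 1) of each of the 44 genes (vertical axis, grouped by role) in each of the 16 libraries (horizontal axis, first blastocyst experiment, second blastocyst experiment and bESCs separated by white lines). CTNNB1 and CSNK1A1 stand out in all libraries, WLS in the blastocysts, and FZD2, FZD7, TCF7L1, GSK3A and SFRP2 in the bESCs, where libraries numbered 2 and 3 differ for several genes.

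The comparison of LY10 with DMSO asked how LY given from the 2-cell stage changed the blastocyst. Of the 44 genes, 34 passed the filter and 3 were called, FZD5 and FZD6 higher and FZD1 lower. These 3 are 8.82% of the 34, and 14.7% of all 14249 tested genes were called (6.2% higher and 8.51% lower). The median log2 fold change of the 34 was -0.17, also with SFRP2 set to its bound, against -0.05 over all tested genes. With quantile normalization the 3 called were all higher, as FZD1 lost its call and LRP5 gained one. DVL1, FZD2, LEF1, LGR5, WNT11, WNT3, WNT4, WNT5B, WNT7B and WNT9A were under the filter.

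FZD5 had the highest median of the Frizzled genes over all blastocysts, though not the highest value in every embryo. Its normalized counts were 214, 76.6 and 231 in the DMSO blastocysts and 443, 428 and 363 in the LY10 blastocysts. Each LY10 embryo lay above each DMSO embryo. FZD5 rose, with a log2 fold change of 1.39 ± 0.42 (SE) and an adjusted p of 0.114 from limma. FZD6, a receptor also known from planar cell polarity, had normalized counts of 78.4, 35.8 and 93 in DMSO and 275, 135 and 154 in LY10. The groups again did not overlap, and DMSO replicate 2 was the lowest for both receptors. FZD6 rose by a log2 fold change of 1.47 ± 0.46 (limma, adjusted p of 0.119).

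FZD1 went the other way. Its normalized counts were 44.2, 48.7 and 25.2 in DMSO and 19.1, 13.4 and 6.47 in LY10, with each LY10 embryo below each DMSO embryo. Its log2 fold change was -1.59 ± 0.63 (limma, adjusted p of 0.184), and the call was lost in 4 of the 6 fits that left out a library and in 2 of 9 other settings. FZD1 and FZD8 are on the list of lower genes in this pathway that the study drew from the same embryos, so their direction is not independent evidence. FZD8 was at 28.7, 22.9 and 5.47 in DMSO and at 2.73, 2.68 and 2.59 in LY10 on the normalized count scale, that is 2 to 4 reads in each LY10 library. The groups did not overlap, and the log2 fold change of -2.18 ± 0.99 did not pass the test (limma, adjusted p of 0.230).

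CTNNB1 had the smallest p of the 34 genes and one of the tightest sets of values. Its normalized counts were 2944, 2896 and 2924 in DMSO and 4381, 4872 and 4491 in LY10. The 3 DMSO embryos were nearly level, and all 3 LY10 embryos lay well above them. The log2 fold change of 0.65 ± 0.18 was below the fold threshold, at an unadjusted p of 0.00681 and an adjusted p of 0.101 from limma.

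LRP6, the main coreceptor, was at 409, 221 and 560 normalized counts in DMSO and at 788, 728 and 677 in LY10. No LY10 embryo overlapped the DMSO range, and the log2 fold change was 0.98 ± 0.34 (limma, unadjusted p of 0.0194, adjusted p of 0.147), just under the fold threshold. LRP5 was also higher in each LY10 embryo, with 17.7, 24.8 and 16.8 against 6.21, 13.9 and 4.38 normalized counts, and did not pass the test (log2 fold change of 1.30 ± 0.75). In all, 7 of the 34 genes had groups that did not overlap (20.6%), against 28.1% of all tested genes. CTNNB1, FZD5, FZD6, LRP5 and LRP6 were apart and higher (14.7%, against 13.8%), and FZD1 and FZD8 apart and lower (5.88%, against 14.4%). At an unadjusted p under 0.05 alone, 5 of 34 genes passed, against 22.9% of all tested genes.

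DMSO replicate 3 bore on these values. Without it, 7 of 33 genes were called, in a fit that called 24.2% of all tested genes and gave 1964 of them an adjusted p under 0.05. Among the 7 were FZD5 at a log2 fold change of 1.67 (limma, adjusted p of 0.0423) and LRP6 at 1.28 (adjusted p of 0.0354), beside FZD6, FZD1, FZD8, DKK3 and SFRP1. Without DMSO replicate 2, FZD6 alone was called, at a log2 fold change of 1.06, and FZD5 stood at 0.88, where 9.64% of all tested genes were called. Leaving out LY10 replicate 1 ended the FZD6 call, at 1.16.

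None of the 4 secreted antagonists passed the test, and each was carried by 1 or 2 DMSO embryos. SFRP1 was at 72.2, 37.8 and 4.38 normalized counts in DMSO and at 4.09, 3.35 and 23.3 in LY10. DKK1 was at 6.21, 52.7 and 0 in DMSO and at 0, 1.34 and 9.06 in LY10, and DKK3 at 20.2, 80.6 and 4.38 against 1.36, 8.04 and 0. SFRP2 was at 2.33, 0 and 94.1 in DMSO and at 0 reads in each LY10 library, where 3 reads would be at most 4.09 normalized counts. The high embryo thus differed: replicate 1 for SFRP1, replicate 2 for DKK1 and DKK3, replicate 3 for SFRP2, and DMSO and LY10 values overlapped for all 4 genes. The summed FPKM of the 4 genes was 3.06 to 8.97 in DMSO and 0.141 to 1.41 in LY10. The log2 fold changes were -1.61 ± 1.14 for SFRP1, -1.35 ± 1.74 for DKK1 and -2.92 ± 1.33 for DKK3.

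The remaining tested members did not pass the test, and their groups overlapped. AXIN2, the usual readout of β-catenin activity, was at 77.6, 77.6 and 49.2 normalized counts in DMSO and at 92.7, 64.4 and 57 in LY10. Its groups overlapped, with a log2 fold change of 0.06 ± 0.40. GSK3B (666, 696 and 734 against 656, 534 and 689) and TCF7L2 (641, 877 and 377 against 218, 603 and 412) overlapped as well, with log2 fold changes of -0.17 ± 0.22 and -0.66 ± 0.43. The 6 genes of the destruction complex had log2 fold changes between -0.19 and 0.18. WNT5A was at 39.6, 94.5 and 23 normalized counts in DMSO and at 12.3, 85.8 and 37.6 in LY10, PORCN at 130, 127 and 45.9 against 108, 202 and 85.5, and FZD7 at 0, 14.9 and 6.56 against 19.1, 18.8 and 7.77. FZD7 had the highest log2 fold change of the 34 genes, 1.62 ± 1.19, with overlapping groups at low counts. On the lower side, WNT2B, RNF43 and TCF7 had log2 fold changes of -0.81 ± 0.94, -0.79 ± 0.83 and -0.71 ± 0.68. LEF1 and WNT9A, below the filter, had 1.09 to 10.9 and 2.19 to 7.96 normalized counts in the DMSO embryos and 0 reads in each LY10 embryo. LGR5 had 0, 0.995 and 1.09 in DMSO and 5.45, 7.37 and 1.29 in LY10. These are values of a few reads. Each LY10 library had reads on fewer genes (17871, 20455 and 18466) than each DMSO library (20490, 21563 and 22126). The part of this difference in the low counts was not tested.

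**Figure D2:**
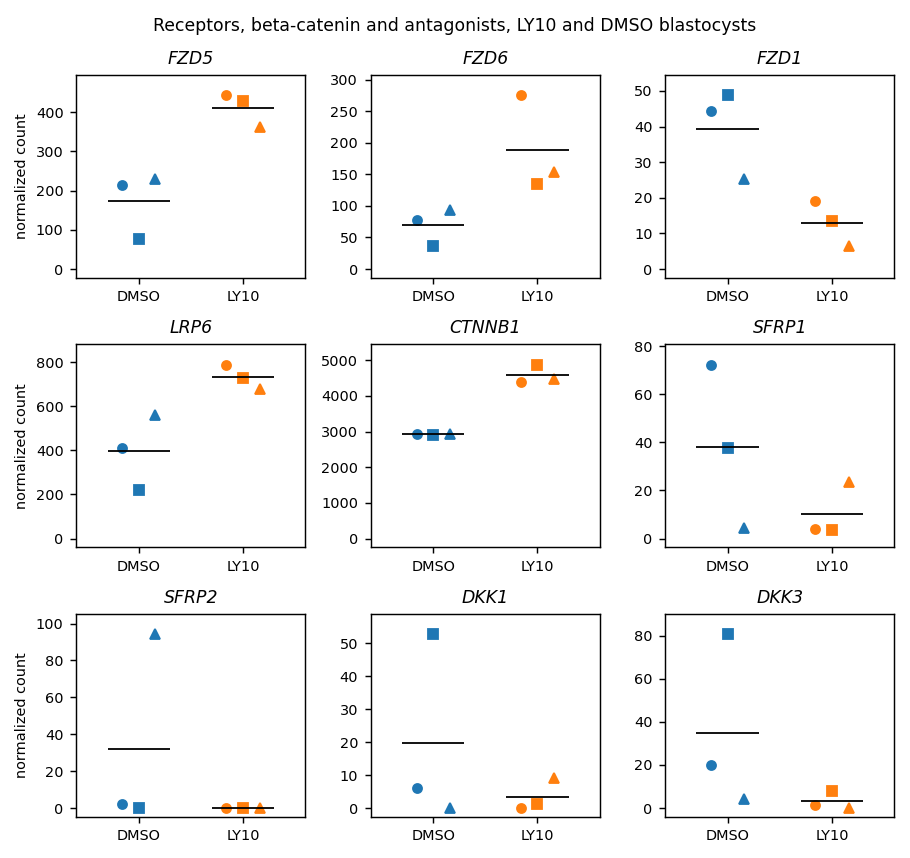
Normalized counts (vertical axes, linear) of 9 genes in the 3 DMSO and 3 LY10 blastocysts. Circles, squares and triangles are replicates 1, 2 and 3 and lines are group means; FZD5, FZD6, LRP6 and CTNNB1 lie higher and FZD1 lower in every LY10 embryo, and the antagonists overlap between the groups.

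Beyond the 44 genes, 150 further genes of the pathway were listed, 148 of which had an entry and 98 passed the filter. In LY10, 7 were called higher and 13 lower (20.4% of the 98, against the 14.7% of all tested genes). Those called higher with the smallest p were the corepressor subunit HDAC1 (log2 fold change of 1.59 ± 0.26), the chromatin ATPases RUVBL2 (1.93 ± 0.34) and RUVBL1 (1.49 ± 0.35), E-cadherin CDH1 (1.93 ± 0.43), which holds β-catenin at junctions, and TMEM9 (1.06 ± 0.39). The lower side was led by the corepressor TLE1 (-1.32 ± 0.32), the calcineurin subunit PPP3CA (-1.27 ± 0.31), SHISA2 (-2.21 ± 0.61), BAMBI (-1.36 ± 0.43) and APCDD1 (-1.66 ± 0.52). Of the 10 tested genes listed as further antagonists, 6 were called lower and 0 higher: SHISA2, BAMBI, APCDD1, TPBG, LZTS2 and CTNNBIP1. BAMBI is on that list, though these data do not show how it acts on the Wnt pathway. APCDD1, BAMBI, LZTS2, CTNNBIP1 and PPP3CA are on the study's own list of lower genes from these embryos, so that count is not independent evidence of the direction. Of the 11 β-catenin targets tested, 2 were called, PPARD and FOSL1, both lower.

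Some markers of other cell types were called in the same comparison, which called 6.2% of all tested genes higher and 8.51% lower. Of 9 tested genes of a fibroblast list, 4 were called lower (DCN, COL1A2, S100A4 and TWIST1) and 0 higher, with summed FPKM over the list of 161 to 212 in DMSO and 159 to 244 in LY10. Of 9 tested hypoblast markers, 4 were called higher (COL4A2, HNF4A, NID1 and PDGFRA), with sums of 127 to 198 and 101 to 181 FPKM. POU5F1, of 10 epiblast markers, was called higher, and the epiblast sums were 430 to 582 FPKM in DMSO and 615 to 942 in LY10. No call fell on the 12 trophectoderm or 6 cumulus markers tested. Their part in the Wnt values was not tested.

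The second experiment compared blastocysts given LY from the 2-cell stage with its own control. Of the 33 genes that passed the filter, 5 were called in cell2_LY against LY_DMSO, all higher: WNT6, DVL2, DVL3, AXIN1 and TCF7L1. That is 15.2%, and 17% of all 14529 tested genes were called (8.71% higher and 8.34% lower). The median log2 fold change of the 33 was 0.63 against 0.00 over all tested genes, and 24 of 33 (72.7%) were above 0 against 50.1% of all tested genes. Values did not overlap between the groups for 13 genes (39.4%), against 53.7% of all tested genes. Of these, 12 were higher and CTNNB1 lower, where each direction held 26.9% of all tested genes. DKK1, DVL1, FZD2, FZD8, LEF1, LGR5, SFRP2, WNT3, WNT4, WNT7B and WNT9A were under the filter in this table.

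WNT6, the main blastocyst ligand, had normalized counts of 51 and 58.2 in LY_DMSO and 224 and 164 in cell2_LY. Both treated embryos lay well above both controls. WNT6 rose with a log2 fold change of 1.79 ± 0.45 (limma, adjusted p of 0.0833). Its neighbour WNT10A was at 3.71 and 16.6 in LY_DMSO and 2.18 and 22.7 in cell2_LY, with overlapping groups and a log2 fold change of -0.07 ± 1.26.

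DVL2 and DVL3, the Dishevelled proteins that relay the receptor signal, both rose. DVL2 had normalized counts of 62.1 and 39.7 in LY_DMSO and 302 and 132 in cell2_LY, a log2 fold change of 1.99 ± 0.52 (limma, adjusted p of 0.0883). DVL3 was at 120 and 72.1 in LY_DMSO and at 307 and 202 in cell2_LY, a log2 fold change of 1.41 ± 0.44 (limma, adjusted p of 0.112). Neither gene overlapped between the groups, and replicate 1 was the higher of the 2 treated embryos for both. DVL1 stayed at 0 to 2.96 normalized counts in all 4 embryos.

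AXIN1, the scaffold of the destruction complex, was at 147 and 98 normalized counts in LY_DMSO and at 309 and 201 in cell2_LY. TCF7L1 was at 318 and 236 in LY_DMSO and at 716 and 510 in cell2_LY. In both genes the treated embryos lay above the controls, with replicate 1 the highest. AXIN1 rose by a log2 fold change of 1.05 ± 0.41 (limma, adjusted p of 0.168), just above the fold threshold, and lost its call in 7 of 17 alternative fits. TCF7L1 rose by 1.14 ± 0.37 (adjusted p of 0.120).

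WNT6 and DVL2 stayed called in each of 17 alternative fits. Without cell2_LY replicate 1 they were the sole genes called, at log2 fold changes of 1.57 and 1.39, and without LY_DMSO replicate 2 AXIN1, DVL3 and TCF7L1 also lost their calls. These fits called 10.9% and 12.8% of all tested genes. Without LY_DMSO replicate 1, 12 of 34 genes were called, and 21.6% of all tested genes. Relative to its reads on genes, cell2_LY replicate 1 had been scaled by a larger library size (1.23 times) than the other 15 libraries (0.949 to 1.07 times). With reads on genes as the library size, the median of all tested genes in this comparison moved to 0.24, and AXIN1, DVL2, DVL3, TCF7L1 and WNT6 remained called.

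CTNNB1 was at 6140 and 5818 normalized counts in LY_DMSO and at 4638 and 4837 in cell2_LY. Both treated embryos lay below both controls, and the log2 fold change of -0.34 ± 0.24 did not pass the test (limma, adjusted p of 0.408). AXIN2 was at 168 and 82.2 in LY_DMSO and at 200 and 171 in cell2_LY, narrowly apart, at 0.65 ± 0.48 on the log2 scale. GSK3A (33.4 and 35.1 against 126 and 61.2), WNT2B (35.2 and 10.2 against 61.2 and 63.1) and FZD1 (17.6 and 0.924 against 24 and 22.7) were each higher in both cell2_LY embryos on the normalized count scale. Their log2 fold changes of 1.33 ± 0.59, 1.65 ± 0.76 and 2.02 ± 1.11 did not pass the test. FZD5 and FZD6, which rose in LY10, had log2 fold changes of 0.71 ± 0.47 and -0.32 ± 0.40 in cell2_LY, with overlapping groups.

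Of the 150 further genes, 101 passed the filter in this table, and 16 were called higher and 7 lower (22.8%, against 17% of all tested genes). The immediate early factor JUN, counted among β-catenin targets, led the higher side with a log2 fold change of 2.52 ± 0.44. The GTPase RAC1 (1.27 ± 0.28), plakoglobin JUP (1.07 ± 0.24), the ubiquitin ligase subunit FBXW11 (1.27 ± 0.31) and the corepressor CTBP1 (1.74 ± 0.44) followed. The lower side was led by RUVBL2 (-1.58 ± 0.28), the casein kinase CSNK1G3 (-1.20 ± 0.26), SKP1 (-1.69 ± 0.50), BTRC (-1.07 ± 0.32), the β-TrCP subunit that binds phosphorylated β-catenin, and CDH1 (-1.18 ± 0.35). Of 11 β-catenin targets tested, 4 were called, JUN, PPARD, MYC and FOSL1, all higher. RUVBL2, RUVBL1, HDAC1 and CDH1, called higher in LY10, were called lower here, and PPARD, FOSL1 and LZTS2, called lower in LY10, were called higher here. The calcium-dependent kinase CAMK2G was called higher in both, with log2 fold changes of 1.03 ± 0.44 in LY10 and 1.92 ± 0.56 in cell2_LY. Whether the effects differ between the experiments was not tested. The shares of all tested genes called alike or oppositely in both are not given, so these calls do not set the pathway apart. Over all tested genes, 8.71% were called higher in cell2_LY and 8.34% lower. Of 14 trophectoderm markers tested, 4 were called higher in cell2_LY (TKDP1, CDX2, PAG11 and GATA2), with summed FPKM over the list of 5112 to 7747 against 4183 to 4951 in LY_DMSO. DPPA3 and PDGFRA were called lower, 1 of 10 epiblast and 1 of 9 hypoblast markers. STAR, of 3 cumulus markers tested, was called higher, and the cumulus sums were 17.9 to 39.3 FPKM in cell2_LY and 9.31 to 20.3 in LY_DMSO. The epiblast sums were 430 to 567 FPKM in cell2_LY and 567 to 715 in LY_DMSO. Their part in the Wnt values was not tested.

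LY from the 16-cell stage was compared with the same LY_DMSO embryos. Of the 33 genes, 1 was called (3.03%), against 5.22% of all tested genes, and the median log2 fold change was 0.19 against -0.01. That gene was FZD1, at 17.6 and 0.924 normalized counts in LY_DMSO and at 29.7 and 53.6 in cell16_LY. It rose by 2.78 ± 1.11 on the log2 scale (limma, adjusted p of 0.620). LY_DMSO replicate 2 held a single FZD1 read, and the call was lost in 5 of the 6 fits that left out a library, with 1.14 as the value without that embryo. In 10 genes the groups did not overlap (30.3%), against 42.9% of all tested genes.

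GSK3B was higher in both cell16_LY embryos, with 1274 and 1269 normalized counts against 631 and 866. Its log2 fold change of 0.78 ± 0.29 passed at the unadjusted p of 0.0273 but not the fold threshold (limma, adjusted p of 0.620). The genes called in cell2_LY against these controls had log2 fold changes here of 0.45 ± 0.45 for WNT6, 0.75 ± 0.52 for DVL2, 0.23 ± 0.44 for DVL3, -0.04 ± 0.41 for AXIN1 and 0.11 ± 0.37 for TCF7L1. Both comparisons share the LY_DMSO embryos. WNT11, best known for its role in cell movements, was at 5.56 and 16.6 normalized counts in LY_DMSO and at 43.7 and 11.7 in cell16_LY, with overlapping groups. DKK1 was at 9.27 and 2.77 in LY_DMSO, at 10.2 and 15.2 in cell16_LY and at 0 reads in both cell2_LY embryos, under the filter in this table. Among the further pathway genes 4 of 101 were called (3.96%, against 5.22% of all tested genes), all higher. They were the planar polarity cadherin CELSR1 (2.63 ± 0.77), SHISA2 (2.70 ± 0.82), JUN (1.06 ± 0.44) and LZTS2 (2.50 ± 1.03). Over all tested genes, 3.25% were called higher in cell16_LY and 1.97% lower. Of the 14 trophectoderm markers tested, 3 were called higher (IFNT2, TKDP1 and PAG11), with sums of 5268 to 5300 FPKM in cell16_LY against 4183 to 4951 in LY_DMSO. APOA1, of 9 hypoblast markers, and CYP11A1, of 3 cumulus markers, were also called higher. The cumulus sums were 22.8 and 89.4 FPKM in cell16_LY against 9.31 and 20.3 in LY_DMSO. No epiblast marker was called, and the median log2 fold change of the 10 tested was -0.66, with sums of 419 to 507 FPKM against 567 to 715. Their part in the Wnt values was not tested.

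The start of treatment was addressed directly by cell16_LY against cell2_LY, which shares both groups with the preceding comparisons. Of the 33 genes, 7 were called (21.2%), FZD6 higher and WNT6, DVL2, DVL3, AXIN1, GSK3A and TCF7L1 lower, against 11.3% of all tested genes (5.58% higher and 5.77% lower). The median log2 fold change was -0.40 against 0.04 over all tested genes, and 21 genes did not overlap between the groups (63.6%, against 54.5%). The study named Wnt among the downregulated pathways of this comparison, from the same embryos, so the lower calls are not independent evidence. WNT6 was at 90.2 and 61.8 normalized counts in cell16_LY, below the 224 and 164 of cell2_LY, and fell by 1.35 on the log2 scale (SE 0.45, limma, adjusted p of 0.206). DVL2, at 80.9 and 87.5, and DVL3, at 96.7 and 125, fell by 1.24 (SE 0.52) and 1.17 (SE 0.44). Both cell16_LY embryos lay below both cell2_LY embryos for these 3 genes.

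GSK3A had normalized counts of 126 and 61.2 in cell2_LY and of 23.2 and 26.8 in cell16_LY, and fell by 1.77 (SE 0.59, limma, adjusted p of 0.207). AXIN1, at 107 and 127 in cell16_LY, and TCF7L1, at 386 and 227, fell by 1.09 (SE 0.41) and 1.03 (SE 0.37). FZD6 went up, from 137 and 172 in cell2_LY to 328 and 359 in cell16_LY, a log2 fold change of 1.16 ± 0.40 (limma, adjusted p of 0.210). The groups of these 4 genes did not overlap. With reads on genes as the library size, 8 genes were called lower and 0 higher, so FZD6 lost its call, and that scaling moved the median of all tested genes to -0.18. Without cell2_LY replicate 1, and equally without cell16_LY replicate 2, none of the 44 genes was called by limma, and without cell16_LY replicate 1 there were 2. In these 3 fits limma called 6.49%, 9.1% and 5.65% of all tested genes. Among 101 further pathway genes 9.9% were called, against 11.3% of all tested genes. The called genes were 3 higher, CSNK1G3 (1.19 ± 0.26), CDH1 (1.25 ± 0.35) and SKP1 (1.24 ± 0.50), and 7 lower. The lower ones with the smallest p were TLE3 (-1.25 ± 0.30), JUN (-1.46 ± 0.44), TBL1X (-1.16 ± 0.40), CSNK1G2 (-1.35 ± 0.48) and CXXC5 (-1.18 ± 0.43). Over all tested genes, 5.58% were called higher and 5.77% lower. Of the 14 trophectoderm markers tested, 3 were called higher and 2 lower, and 2 of 10 epiblast markers lower (DNMT3B and UTF1). Their part was not tested.

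**Figure D3:**
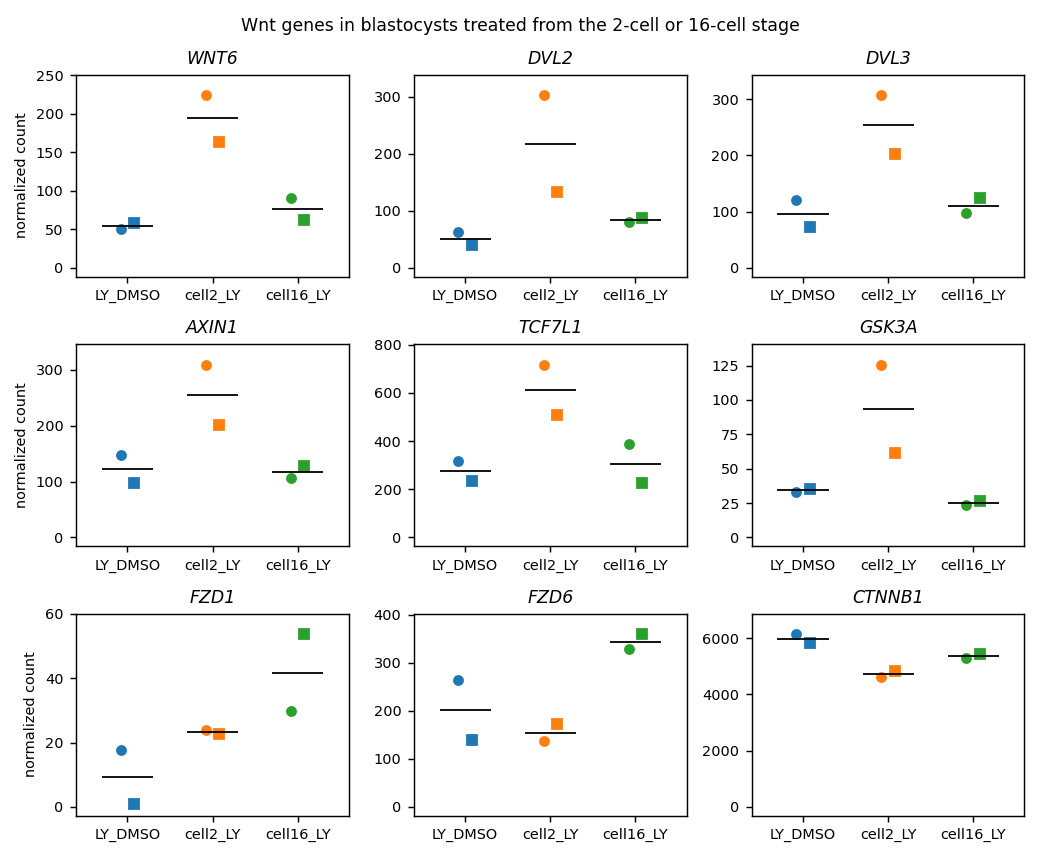
Normalized counts (vertical axes, linear) of 9 genes in the 2 LY_DMSO, 2 cell2_LY and 2 cell16_LY blastocysts. Circles and squares are replicates 1 and 2 and lines are group means; WNT6, DVL2, DVL3, AXIN1, TCF7L1 and GSK3A are highest in cell2_LY, and FZD6 and FZD1 in cell16_LY.

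In bESCs, bESC_LY was compared with the control bESC_tifx. Of the 40 genes that passed the filter, limma without a term for the library number called 0, and 0 had an unadjusted p under 0.05, which 0.0999% of all tested genes had. Limma with voom weights on the recovered reads also called 0. Over all 16012 tested genes, 0.0749% were called. The log2 fold changes of the 40 genes lay between -0.49 (WNT4) and 0.66 (DKK1), with a median of -0.03 against -0.01, and their standard errors between 0.13 and 2.09. WNT10A, WNT2B, WNT3 and WNT6 were under the filter. In 3 genes the groups did not overlap (7.5%, against 14.2% of all tested genes). LGR5 was at 69 and 62.3 normalized counts in bESC_tifx and at 48.7 and 45 in bESC_LY (log2 fold change of -0.48 ± 0.37), WNT7B at 77.3 and 84.3 against 97.4 and 96.6 (0.26 ± 0.31), and FZD1 at 1639 and 1575 against 1539 and 1518 (-0.07 ± 0.14). CTNNB1 was at 21227 and 20113 normalized counts in bESC_tifx and at 20647 and 19075 in bESC_LY, with a log2 fold change of -0.06 ± 0.13, and TCF7L1 at 8272 and 7041 against 8067 and 7705 (0.05 ± 0.14). Of the 134 further pathway genes tested, limma called 0 as well, and 0 had an unadjusted p under 0.05.

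The median standard error of the 40 genes was 0.29. For some of the genes, the libraries numbered 2 differed from those numbered 3, in both treatment groups. The labels do not say what the number stands for. Of the 40 genes, 12 had both libraries numbered 3 apart from both numbered 2 with a mean log2 difference over 1, 11 of them higher and 1 lower. This is 30% of the 40 genes, and 12.5% of all tested genes met the same rule (6.98% higher and 5.5% lower), a description with no test. AXIN2 had normalized counts of 905 in bESC_tifx and 877 in bESC_LY among the libraries numbered 2, and of 3383 and 3180 among those numbered 3. LEF1 was at 232 and 202 against 1323 and 1312, and TCF7 at 684 and 723 against 2185 and 1850. For all 3 genes the bESC_tifx and bESC_LY libraries of a number lay close together and the numbers far apart.

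The negative regulators ZNRF3 (379 and 386 against 780 and 796 normalized counts) and RNF43 (63.9 and 75.2 against 164 and 130), which are targets of the pathway in several tissues, were also higher in the libraries numbered 3. So were the ligands WNT4, at 33 and 18 against 552 and 502, WNT5B, at 1305 and 1326 against 3341 and 3124, and WNT5A, at 311 and 293 against 705 and 849. WNT11 was at 6.18 and 4.23 against 17.3 and 45, and DKK1 at 3.09 and 4.23 against 47.9 and 94.7. WLS was at 473 and 447 normalized counts in the libraries numbered 2 and at 4412 and 4042 in those numbered 3, a mean log2 difference of 3.20. SFRP1 was the gene in the other direction, at 8759 and 8060 against 1734 and 1799, a log2 difference of -2.25. CTNNB1, GSK3A, GSK3B, CSNK1A1, AXIN1, TCF7L1 and FZD2 differed by less than 0.25 on the log2 scale between the numbers. Within a number, the difference of bESC_LY from bESC_tifx had the same sign in both numbers for 25 of the 40 genes. The share over all tested genes is not given, so this count does not set the Wnt genes apart. FZD5 was higher in bESC_LY in both, with 723 against 596 and 436 against 278 normalized counts, and LGR4 lower in both, with 2237 against 2971 and 3482 against 4011.

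**Figure D4:**
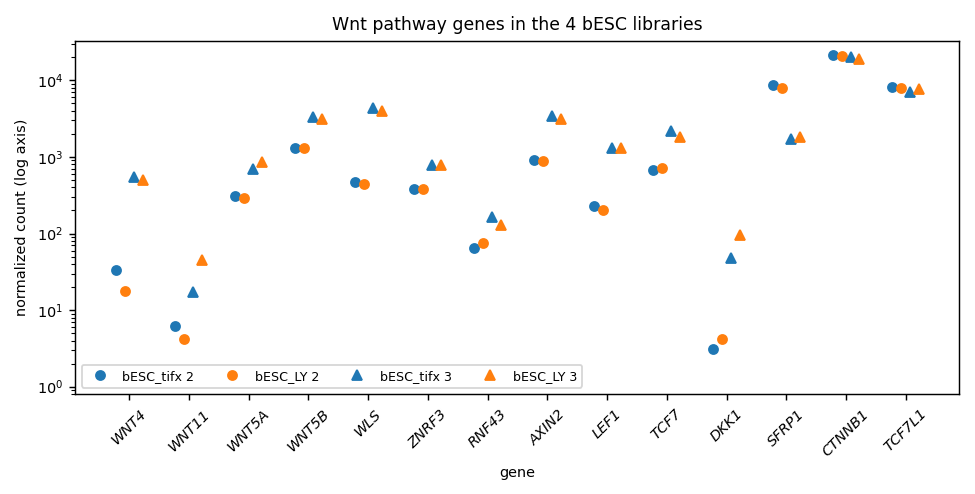
Normalized counts (vertical axis, logarithmic) of 14 genes in the 4 bESC libraries; colours mark bESC_tifx and bESC_LY, circles number 2 and triangles number 3. Points of the same number lie together for the first 12 genes, from WNT4 to SFRP1, while CTNNB1 and TCF7L1 are level in all 4 libraries.

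Set side by side, none of the 44 genes was called in the same direction in both experiments that started LY at the 2-cell stage, LY10 and cell2_LY. The share of all tested genes called alike in both is not given, so this does not set the Wnt genes apart. The 3 genes called in LY10 had log2 fold changes in cell2_LY of 0.71 (FZD5), -0.32 (FZD6) and 2.02 (FZD1). The 5 called in cell2_LY had 0.46 (WNT6), -0.39 (DVL2), -0.06 (DVL3), 0.18 (AXIN1) and 0.28 (TCF7L1) in LY10. AXIN2, the common target, was not called in any comparison, at 0.06, 0.65, -0.44, -1.09 and -0.07 in LY10, cell2_LY, cell16_LY, cell16_LY against cell2_LY and bESC_LY, though 4 of 17 alternative fits called it lower in cell16_LY against cell2_LY.

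**Figure D5:**
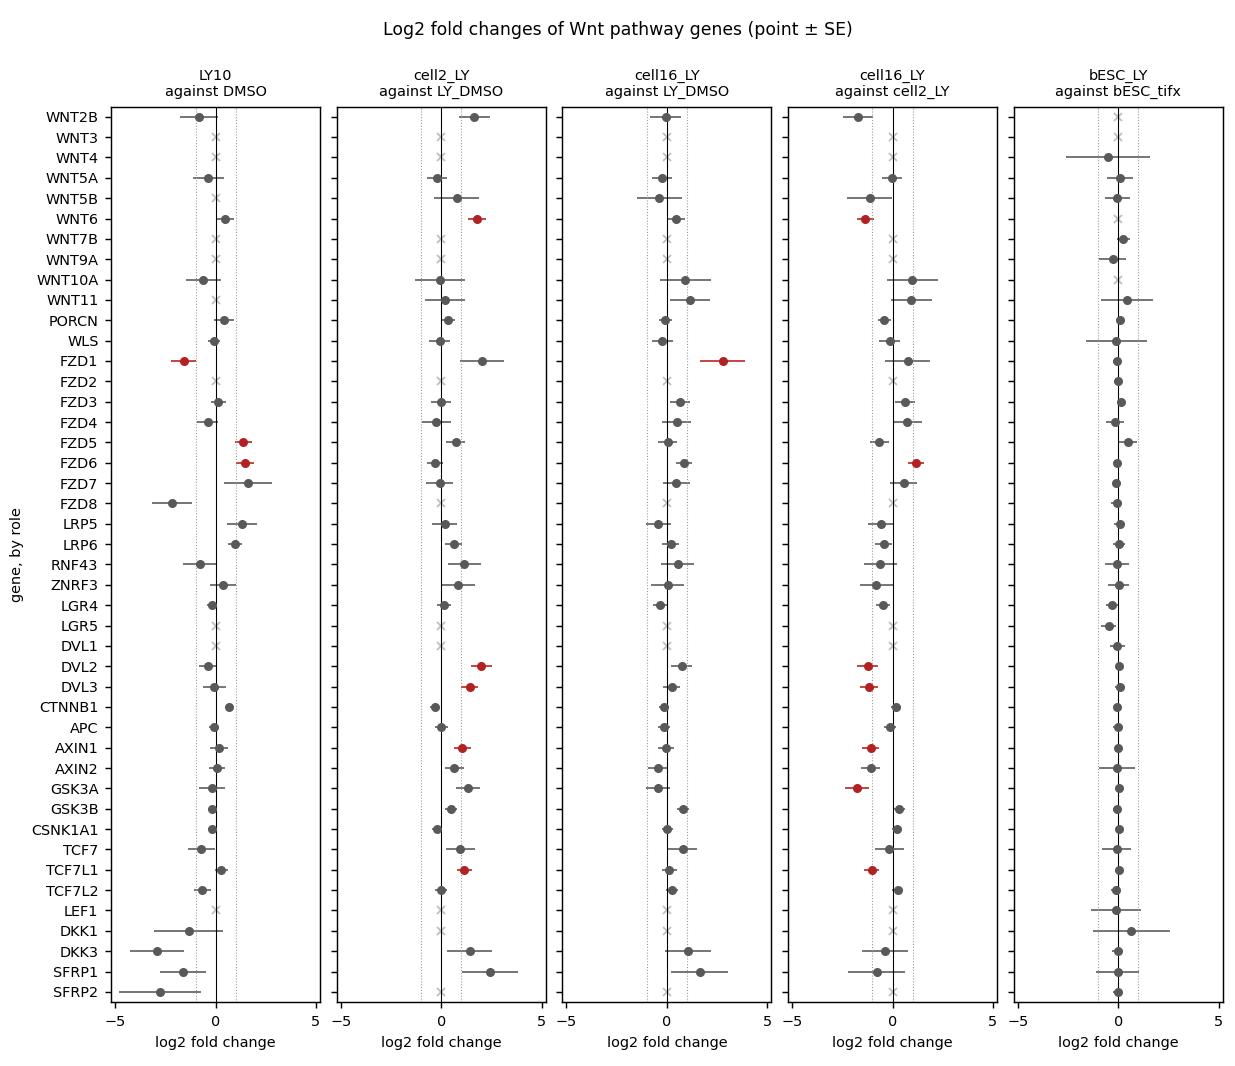
Log2 fold changes (horizontal axes, points with bars of 1 SE) of the 44 genes (vertical axis) in the 5 comparisons. Red marks the called genes, grey crosses at 0 mark genes under the filter, and dotted lines mark a log2 fold change of 1 in either direction.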

How the data were processed

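The authors deposited FPKM values (reads scaled by gene length and library size) for single blastocysts and for bESCs, together with gene lengths, positions and columns of their own fold changes and p-values, which were not used. As aligner, STAR and HISAT2 are both given in the study's methods, and the submitters' processing notes list HISAT2 2.0.5, featureCounts 1.5.0-p3, StringTie 1.3.3b and DESeq2 1.20.0. Strandedness is not given in the sources used here. Blastocyst tables carry NCBI gene IDs, and 42 of the 44 genes have the start and end of the ARS-UCD2.0 RefSeq annotation (WNT10A and GSK3A do not). The bESC table carries Ensembl IDs.

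Multiplying FPKM by gene length gave multiples of a single step in each library, with 100% of values within 0.02 reads of a whole read, and so returned reads and library sizes. For normalized counts, reads were divided by their library's size and multiplied by the geometric mean of the sizes in that table. limma 3.58.1 (R 4.3.3; lmFit and eBayes with a trend) was fitted to log2(normalized count + 1) for all genes with a mean of at least 10, with the 3 groups of the second blastocyst table in 1 fit. As fold changes are differences of means on that scale, those of low genes depend on the added 1 and on single libraries near 0. They can be smaller or larger than the ratio of group means. FZD1 in cell2_LY against LY_DMSO, for example, had a log2 fold change of 2.02 at a ratio of means of 2.52. Since the deposited values are FPKM, no count model was run. p-values measure the spread between these libraries. Whether same-numbered bESC libraries share a culture, and whether bESC replicates are separate cultures, is not given. The steps were tested on simulated data with known changes. Values in every library were given for called genes and for 15 pathway nodes, and called genes of the further lists were named up to 5 per direction. TBL1X had 2 entries in the blastocyst tables, and the one with more reads was kept. The members and lists were chosen with earlier results of these data known. Alternatives covered pseudocounts of 0.5 and 5, no filter and a mean of at least 50, scaling by reads on genes, median-of-ratios and quantile normalization, log2(FPKM + 1), voom weights, 2-group fits, a replicate block and leaving out each library.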

Additional observations from a re-analysis of the deposited data

Results flagged for a closer look

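For 3 genes, every treated library moved one way in one experiment and the opposite way in another. FZD1 had log2 fold changes of -1.59 in LY10, 2.02 in cell2_LY, 2.78 in cell16_LY and -0.072 in bESC_LY, each against its own control and each with groups that did not overlap. CTNNB1 had 0.65 in LY10, -0.34 in cell2_LY and -0.16 in cell16_LY. LRP5 had 1.30 in LY10 and -0.43 in cell16_LY. These differences between experiments were not tested, and cell2_LY and cell16_LY share the LY_DMSO embryos. With 2 or 3 libraries a group, groups that do not overlap are frequent among all tested genes, from 14.2% in bESCs to 53.7% in cell2_LY over the 4 comparisons with a control without LY.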

How the results depend on the processing

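No called gene changed sign under any alternative. The LY10 count of 3 became 6 with no filter on low values, where LEF1, WNT9A and DKK3 were added, and ranged from 1 (without DMSO replicate 2) to 7 (without DMSO replicate 3) over fits that left out a library. The cell2_LY count of 5 became 3 on log2(FPKM + 1) and ranged from 2 (without cell2_LY replicate 1) to 12 (without LY_DMSO replicate 1), with 3 without LY_DMSO replicate 2. DVL2 had an adjusted p of 0.0453 from limma without cell2_LY replicate 2. For cell16_LY against LY_DMSO the count of 1 became 0 with a mean of at least 50, on log2(FPKM + 1) and in a fit of the 2 groups alone, and ranged from 0 (without either cell2_LY or either cell16_LY embryo) to 5 (without LY_DMSO replicate 1), with 2 without LY_DMSO replicate 2. For cell16_LY against cell2_LY the count of 7 became 1 on log2(FPKM + 1) and ranged from 0 (without cell2_LY replicate 1 or cell16_LY replicate 2) to 9 (without either LY_DMSO embryo). In bESCs it was 0 in all 14 alternatives. Where a group kept 1 library, limma assumes that it varies like the other groups. Leaving out a library also lowers the sample number, and beyond that the cause was not tested.

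With the replicate number as a block, the counts were 4 (DKK3 added), 5, 1, 7 and 0 in the order above. Same-numbered libraries correlated at -0.12, 0.17 and -0.10 in the first blastocyst table, at -0.23 to 0.12 in the second and at 0.79 in the 2 bESC pairs. In that bESC replicate block, limma gave LGR4 (log2 fold change of -0.31, adjusted p of 0.00148) and FZD5 (0.46, adjusted p of 0.0492) adjusted p-values under 0.05, both below the fold threshold, and called 146 genes over the whole table against 12 without it. Genes of a few reads, such as FZD8, LEF1 and LGR5 in blastocysts, allow no firm value at this depth.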
